A study of Mus musculus with 14 samples.

Results

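Transcripts of 10 circadian clock genes were followed in the kidneys of 14 female CD-1 mice aged 18 weeks. The genes were Per1, Per2, Per3, Dbp, Nr1d1, Nr1d2, Ciart, Tef, Npas2 and Clock. They were chosen by symbol, and their Ensembl identifiers were found through the GENCODE annotation, which gave 10 of the 56980 gene identifiers in the files. All 10 had enough reads to be tested in every comparison.

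Each library was made from the whole kidney of 1 wild-type mouse. Term nondiabetic mice (T-ND, n = 4) were born naturally, stayed with their own mothers and received no streptozotocin (STZ), a toxin of the insulin-producing beta cells. Term diabetic mice (T-D, n = 4) were born in the same way and were given low-dose STZ by injection as young adults. Preterm nondiabetic mice (PT-ND, n = 3) were delivered by Caesarean section a day before term and raised by foster mothers whose drinking water held the sedative acepromazine around fostering. Preterm diabetic mice (PT-D, n = 3) had the same delivery and fostering and then STZ, and some PT-D mice of the study had another round of injections. No T-D mouse of the study had that further round. Early birth, the operation, fostering and the sedative therefore cannot be told apart here. Where PT-D is compared with T-D, the further injections cannot be told apart from them either. All mice were injected with cationic ferritin for imaging and sedated with tribromoethanol before the kidneys were taken. The hour of collection is not given in the sources used here, and for genes whose transcripts vary over the day its part in any difference between groups was not tested.

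Reads counted on genes ran from 16697246 to 28673176 per library. Of the 5 proximal tubule markers, the summed level was between 86332 and 149338 normalised reads in every library, so the labelled tissue held its defining markers. Of 3 adipocyte markers, the sum ran from 1.83 to 4540.2, and it was high in some libraries and near 0 in others of every group. Of 4 adrenal cortex markers, Cyp11b1 was at 0 in every library and the sum was at most 92.5. In bulk kidney, fewer cells of a type and less RNA per cell cannot be told apart. In PT-D compared to PT-ND, 2 of 3 podocyte markers, 1 of 3 endothelial markers and 1 of 4 leukocyte markers were higher by the test used below, against 7.14% of all genes, and in PT-D compared to T-ND 3 of 3, 1 of 3 and 1 of 4 were, against 1.61%. Not all markers of these lists rose. Without passing, 1 endothelial marker, Emcn, was lower in both comparisons. Likewise, 2 leukocyte markers were lower in PT-D than in PT-ND, and 1 was lower than in T-ND. Of 2 markers of the thick ascending limb, Umod, named here after its values had been seen, was lower in PT-D compared to T-ND (-1.39 ± 0.26 on the log2 scale, adjusted p = 0.0325 by edgeR). No other marker list had a gene that passed this test in any comparison. The podocyte sum was 8377 to 10700.1 in PT-D, 4652 to 8147 in PT-ND, 2577 to 8199.99 in T-D and 4086 to 5785 in T-ND. The endothelial sum was 4186 to 4504 in PT-D, 2299.5 to 3749 in PT-ND, 2319 to 3505 in T-D and 2927 to 3332 in T-ND. The leukocyte sum was 1012 to 1209.7 in PT-D, 921 to 1591 in PT-ND, 685 to 1878 in T-D and 601 to 1681 in T-ND. The sum of both thick ascending limb markers was 17311 to 41722 in PT-D, 37751 to 53822 in PT-ND, 23963 to 48627 in T-D and 48500.4 to 72258 in T-ND. The part of these cell markers in the values below was not tested.

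The mammalian clock is a loop of transcription that runs in nearly every cell. The activators CLOCK or NPAS2, each paired with BMAL1, bind E-box elements and drive the genes of their own repressors, the PER and CRY proteins and CIART (also called CHRONO). The nuclear receptors REV-ERB alpha and beta, encoded by Nr1d1 and Nr1d2, compete with ROR receptors at ROR elements and repress Bmal1, Npas2 and other genes, while DBP, TEF and HLF activate genes with D-box elements and the repressor NFIL3 (E4BP4) acts at the same elements. Transcripts driven through E-boxes and those driven through ROR elements peak at different times of day. In the kidney, clock outputs include sodium and water transport genes, and glucocorticoid hormone induces Per1 directly.

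The promoters of 4 of the genes are shown because they carry the elements through which the loop acts, or because the gene is one that differed between groups. Promoter sequences of 300 bases, from 250 before the transcription start to 50 after it, were taken from RefSeq on build GRCm38.p6 and are written 5′ to 3′ on the strand of the gene. A promoter was at hand for 9 of the 10 members, Per2 being the other. Capitals mark the E-box CACGTG and the D-box TTATGTAA, and both strands were searched. The E-box reads the same on either strand. The Ciart window (chr3:95882179-95882478, minus strand) held 3 E-boxes. The Per1 window (chr11:69098699-69098998, plus strand, the first of 2 listed for the gene) held 1 E-box. The Per3 window (chr4:151044616-151044915, minus strand) held 2 D-boxes. The Npas2 window (chr1:39194022-39194321, plus strand) held neither of these, nor the ROR element core TAGGTCA.
Ciart: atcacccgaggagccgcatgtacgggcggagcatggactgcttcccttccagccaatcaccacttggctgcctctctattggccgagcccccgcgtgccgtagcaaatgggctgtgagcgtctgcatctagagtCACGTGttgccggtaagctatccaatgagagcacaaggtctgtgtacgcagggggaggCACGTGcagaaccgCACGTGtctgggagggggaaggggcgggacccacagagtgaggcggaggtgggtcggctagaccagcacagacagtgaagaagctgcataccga
Per1: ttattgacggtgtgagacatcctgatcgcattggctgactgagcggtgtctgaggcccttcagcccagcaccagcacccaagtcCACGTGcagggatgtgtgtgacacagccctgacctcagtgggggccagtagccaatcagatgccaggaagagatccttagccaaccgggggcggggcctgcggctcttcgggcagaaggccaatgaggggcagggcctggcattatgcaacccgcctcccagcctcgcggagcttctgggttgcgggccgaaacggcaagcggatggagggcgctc
Per3: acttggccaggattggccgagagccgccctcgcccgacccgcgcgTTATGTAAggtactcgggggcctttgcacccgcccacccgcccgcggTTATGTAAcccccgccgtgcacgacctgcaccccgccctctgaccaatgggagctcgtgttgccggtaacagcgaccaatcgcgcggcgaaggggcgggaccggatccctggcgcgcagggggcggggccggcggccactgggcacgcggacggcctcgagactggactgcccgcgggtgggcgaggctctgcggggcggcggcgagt
Npas2: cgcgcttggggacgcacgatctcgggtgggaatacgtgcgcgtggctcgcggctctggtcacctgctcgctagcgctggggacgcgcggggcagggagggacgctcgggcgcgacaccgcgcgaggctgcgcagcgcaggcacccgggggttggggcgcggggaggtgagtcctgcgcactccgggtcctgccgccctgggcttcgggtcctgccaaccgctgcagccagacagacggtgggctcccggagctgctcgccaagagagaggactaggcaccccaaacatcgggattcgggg

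The 3 E-boxes of Ciart began 116, 58 and 44 bases before the start site, and the E-box of Per1 began 166 bases before it. Of 32851 promoters of this length, 7.15% held at least 1 E-box and 0.0883% held 3 or more. Among the 9 members with a promoter, Per1, Ciart and Tef had an E-box in at least 1 window, against 8.09% of all genes with a promoter. Per3 was the 1 member with a D-box, against 1.11% of those genes. The D-boxes of Per3 began 205 and 158 bases before the start site, and of all promoters 0.938% held a D-box and 0.0213% held 2 or more. The ROR core was in 2.61% of all promoters and in none of the members' windows. These are matches of letters in a short window and say nothing of binding in these kidneys.

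Levels are given as normalised read counts, that is, reads scaled to equal library size by the trimmed mean of M values (TMM), and, to compare genes, as normalised reads per kilobase of exon. Averaged over the 14 libraries, Tef was the most abundant member at 601 normalised reads per kilobase. Nr1d2, Nr1d1 and Dbp followed at 249, 237 and 216. Ciart, Per1 and Per2 lay at 175, 169 and 151. Per3 and Clock lay lower, at 39.8 and 38.6. Npas2 was the least abundant, at 10.6, and its raw counts ran from 4 to 231 reads per library, so its values carry the most counting error.

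The members also differed in how much they varied. Between the highest and the lowest of the 14 libraries, the level of Npas2 differed 35.9-fold, that of Per1 6.16-fold and that of Ciart 5.46-fold. Clock and Nr1d2 varied least, 1.92-fold and 2.18-fold. Counting was without regard to strand, and reads that fall on 2 overlapping genes are not counted. This touches Nr1d1 most, since 52.8% of its exon bases also lie in Thra or Gm31862 on the other strand. The share was 15.5% for Dbp, at most 13.4% for each other member, and 0 for Per2 and Nr1d2.

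**Figure D1:**
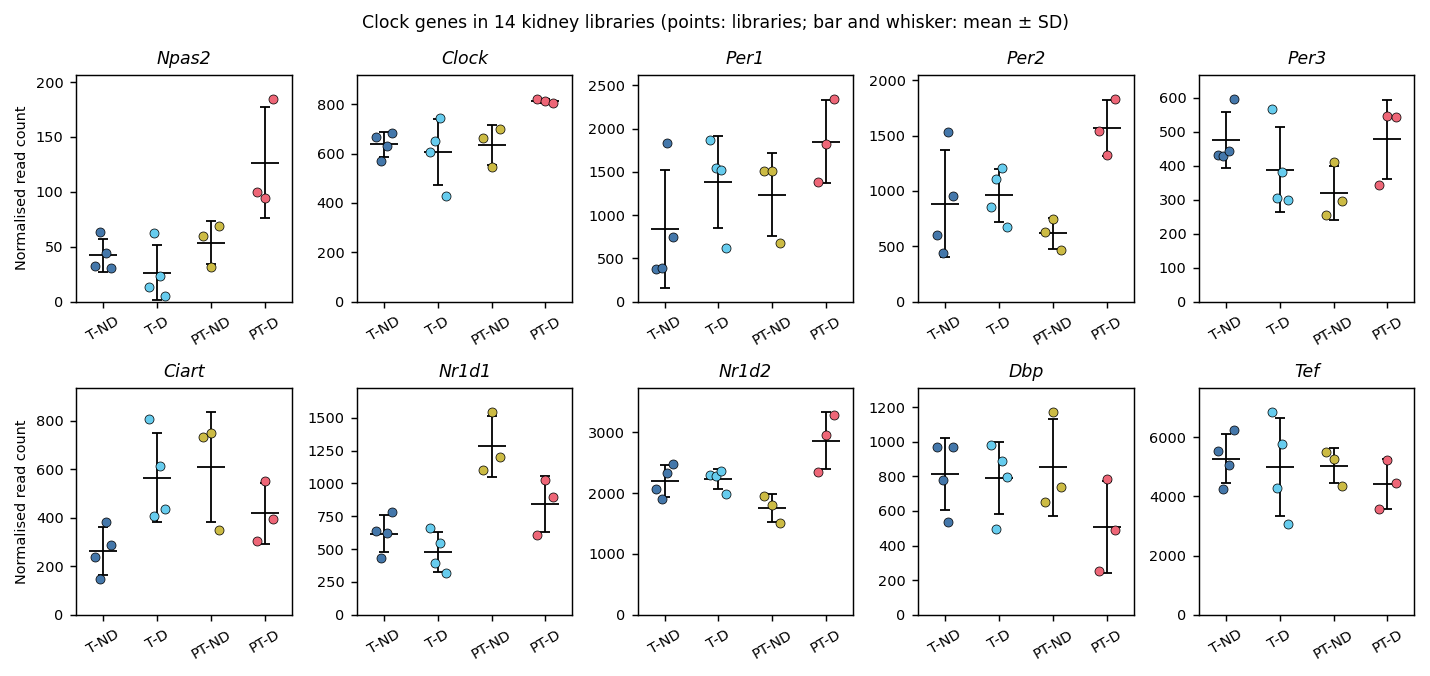
Normalised read count (vertical axes, starting at 0) of each of the 10 clock genes by group. Points are libraries, and the bar and whiskers give the mean ± SD. The 3 PT-D libraries lie above all PT-ND libraries for Npas2, Clock, Per2 and Nr1d2, and below them for Nr1d1.

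The groups were set against each other in 6 contrasts with the quasi-likelihood test of edgeR, and a gene passed where its p, adjusted by Benjamini-Hochberg over all genes tested, was under 0.05. The combined contrast, PT-D vs. T-ND, asked what preterm birth and diabetes do together. Npas2 passed, with a higher level in PT-D, as 1 of 10 members, against 2.76% of all genes in either direction and 1.61% that were higher. DESeq2 passed the same member, against 17.7% of all genes, and 5 members had an unadjusted p under 0.05 in edgeR, against 24.3%. Npas2 and Clock were higher in PT-D without overlap of the groups, as were 12% of all genes. The median log2 fold change was 0.41 over the members and 0.03 over all genes.

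Preterm birth within diabetes was compared in PT-D vs. T-D. None of the 10 members passed edgeR's test, against 0.193% of all genes, while 4 had an unadjusted p under 0.05, against 22.3%. With DESeq2 3 members passed, Npas2, Per2 and Nr1d1, all higher in PT-D, against 15.8% of all genes. Without a filter on low counts edgeR passed 3 as well, against 5.96% of all genes. Npas2, Clock and Per2 were higher in PT-D without overlap, as were 12.3% of all genes.

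Diabetes within term birth was compared in T-D vs. T-ND. None of the members passed edgeR's test, against 0.0673% of all genes. A single member, Ciart, had an unadjusted p under 0.05, against 11.8% of all genes, and DESeq2 passed 1, also Ciart, against 2.81%. Ciart was higher in T-D without overlap, as were 2.9% of all genes.

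Diabetes within preterm birth, PT-D vs. PT-ND, gave the most calls. Per2 and Nr1d2 passed, both higher in PT-D, which is 2 of 10 members against 12.9% of all genes. In the higher direction alone the background was 7.14%. An unadjusted p under 0.05 was found for 6 members and 29.1% of all genes. In this contrast 4 members did not overlap between the groups and were higher in PT-D, where 18.6% of all genes did so, and 1 did not overlap and was lower, where 15.7% did so. With DESeq2 4 members passed, Nr1d1 and Npas2 in addition, against 26.7% of all genes.

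Preterm birth without diabetes was compared in PT-ND vs. T-ND. None of the members passed edgeR's test, against 0.0809% of all genes, and 4 had an unadjusted p under 0.05, against 10.7%. DESeq2 passed 2 of them, Nr1d1 and Ciart, both higher in PT-ND, against 2% of all genes. The interaction, that is, the log2 fold change of diabetes in preterm mice minus that in term mice, passed for Ciart among the members in edgeR's test, against 6.23% of all genes in either direction and 3.41% with a negative value, and for Ciart and Nr1d2 by DESeq2, against 21%. An unadjusted p under 0.05 was found for 5 members and 24.5% of all genes. The comparisons share groups, so their values are not independent of each other.

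**Figure D2:**
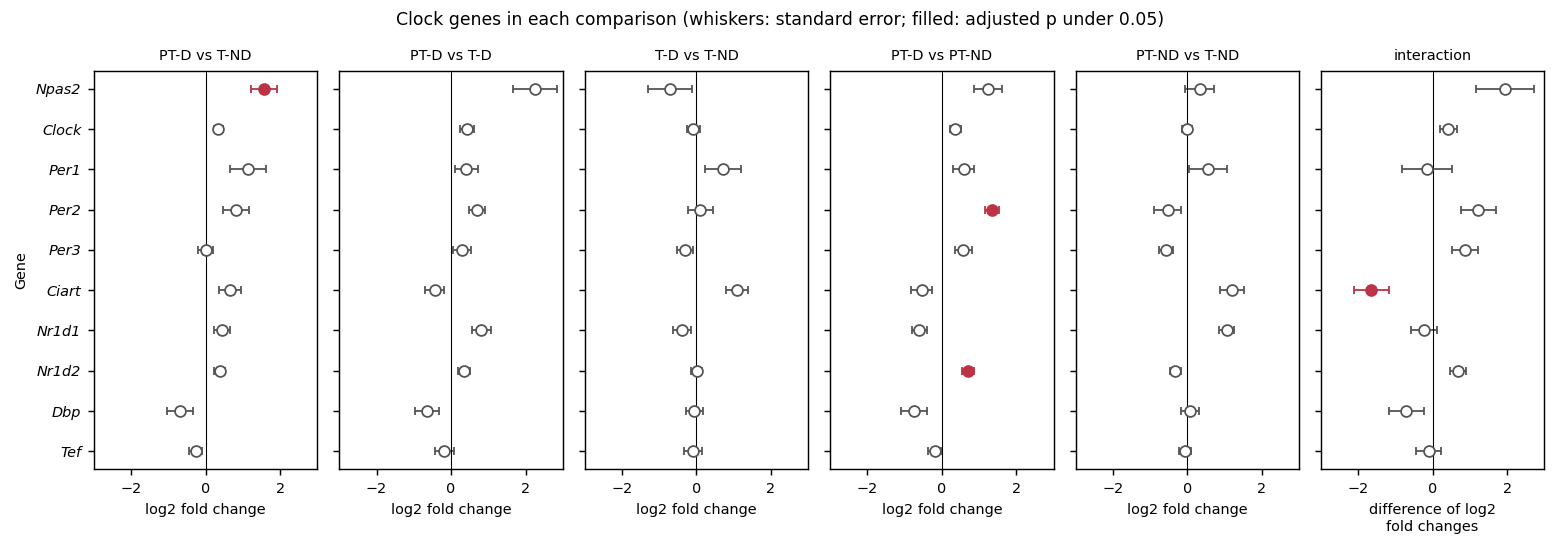
Log2 fold change of the 10 clock genes in the 5 pairwise comparisons, and the difference of log2 fold changes in the interaction (horizontal axes). Whiskers are standard errors and filled points have an adjusted p under 0.05 by edgeR. The filled points are Npas2 in PT-D vs. T-ND, Per2 and Nr1d2 in PT-D vs. PT-ND, and Ciart in the interaction.

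Npas2 encodes an activator that can stand in for CLOCK. Its normalised read counts were 99.4, 94.8 and 185 in PT-D. They were 59.5, 31.7 and 69.2 in PT-ND, 32.1, 63, 44 and 30.1 in T-ND and 13.6, 62.1, 23.6 and 5.15 in T-D. All 3 PT-D libraries lay above all 11 others, and the lowest value, 5.15, was that of T-D replicate 4. In PT-D vs. T-ND the log2 fold change was 1.56 ± 0.35 (SE), with an adjusted p of 0.0484 by edgeR. The adjusted p was close to the threshold and passed without T-ND replicate 3 (0.0361). It did not pass without T-ND replicate 1 (0.134), 2 (0.0576) or 4 (0.108), or without PT-D replicate 1 (0.0648), 2 (0.0824) or 3 (0.168). Nor did it pass in a fit of all 14 libraries (0.114) or with a covariate for the suffix a on 5 library names, whose meaning is not stated (0.0519).

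Against the other groups the difference of Npas2 was of the same sign. In PT-D vs. T-D the log2 fold change was 2.26 ± 0.59 (adjusted p = 0.0839 by edgeR and 0.00611 by DESeq2), and edgeR's test passed without T-D replicate 2 (3.09, adjusted p = 0.0394). In PT-D vs. PT-ND it was 1.24 ± 0.38 (adjusted p = 0.0562 by edgeR and 0.0159 by DESeq2), and edgeR's test passed without PT-D replicate 1 (adjusted p = 0.0479). In the interaction it was 1.94 ± 0.79 (adjusted p = 0.14 by edgeR), which passed without T-D replicate 2 (adjusted p = 0.0303). T-D and T-ND overlapped, with a log2 fold change of -0.72 ± 0.58 between them (adjusted p = 0.648 by edgeR).

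Clock, the gene of the other activator, had the narrowest spread of any member in PT-D. Its normalised read counts there were 822, 816 and 804, against 663, 544 and 702 in PT-ND. They were 667, 571, 632 and 684 in T-ND and 607, 651, 745 and 427 in T-D. As with Npas2, the 3 PT-D values lay above the 11 others, but the difference was small. The log2 fold change was 0.34 ± 0.11 against T-ND, 0.42 ± 0.19 against T-D and 0.36 ± 0.15 against PT-ND, with edgeR adjusted p of 0.103, 0.221 and 0.139. T-D replicate 4, which had the lowest Clock level, also had the fewest genes with a read, 19589. The 3 PT-D libraries had the most, 21632, 22818 and 22814, against at most 21586 in the others. The part of this in the levels of Npas2 and Clock was not tested.

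Bmal1, the common partner of both activators, was measured as one of 20 further clock genes. Normalised read counts of Bmal1 were 55.5, 78, 82.3 and 66.9 in T-D and 163, 153, 178 and 123 in T-ND, so that the groups did not overlap (3.75% of all genes were lower in T-D without overlap). They were 156, 131 and 169.6 in PT-ND and 208, 90.3 and 112 in PT-D, where PT-D replicate 1 had the highest level of all 14 libraries. The log2 fold change in T-D vs. T-ND was -1.14 ± 0.23 (adjusted p = 0.104 by edgeR and 0.000549 by DESeq2). In PT-D vs. PT-ND it was -0.16 ± 0.32 (adjusted p = 0.787 by edgeR), and the interaction was 0.96 ± 0.38 (adjusted p = 0.135 by edgeR).

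Per2, a repressor whose gene is driven through E-boxes, had the lowest adjusted p of any member in any contrast by edgeR. Its normalised read counts were 1539.5, 1326 and 1832 in PT-D and 631, 744 and 469.6 in PT-ND, means of 1566 ± 254 (SD, n = 3) and 615 ± 138 (SD, n = 3). They were 853, 1111, 1203 and 676 in T-D and 605, 440.2, 1534 and 956 in T-ND. PT-D lay above PT-ND and T-D without overlap, whereas T-ND replicate 3 reached into the range of PT-D. In PT-D vs. PT-ND Per2 rose by 1.35 ± 0.19 on the log2 scale (adjusted p = 0.00415 by edgeR), and it passed without each of the 6 libraries in turn, with log2 fold changes from 1.19 to 1.5. The log2 fold change was 0.70 ± 0.21 against T-D (adjusted p = 0.1 by edgeR and 0.038 by DESeq2) and 0.82 ± 0.35 against T-ND (adjusted p = 0.191 by edgeR). Without T-ND replicate 3 the latter was 1.22 and passed (adjusted p = 0.0228 by edgeR).

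Per1, the paralogue that also answers to glucocorticoid hormone, varied more within groups. In T-ND the normalised read counts were 380.2, 390.0, 1832 and 746, a range wider than in any other group. They were 1863, 1544, 1516 and 623 in T-D, 1507, 1513 and 682 in PT-ND and 1378, 1822 and 2343 in PT-D. All groups overlapped. T-ND replicates 1 and 2 were the lowest of the 14 libraries, and both were also low for the glucocorticoid-induced genes Sgk1 (4748 and 4695, other libraries 8633 or more) and Klf9 (2578 and 2135, other libraries 3269 or more). Of the other genes of that response, Tsc22d3 was low in both (1857 and 1494, other libraries 2334 or more). Fkbp5 (5310 and 2938), Zbtb16 (413 and 79.5) and Ddit4 (259 and 514) were not the lowest in both. T-ND replicates 1 and 2 carry the suffix a on their names, and the other T-ND libraries do not. The log2 fold change in PT-D vs. T-ND was 1.14 ± 0.49 (adjusted p = 0.193 by edgeR). It was 0.51 without those 2 libraries (adjusted p = 0.541) and 1.86 without T-ND replicate 3 alone, where it passed (adjusted p = 0.00912).

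Per3 differed in another order. There were 253, 409 and 297 normalised reads in PT-ND and 432, 427, 444 and 597 in T-ND, without overlap. The counts were 566, 306, 380.3 and 299.9 in T-D and 342, 545 and 545 in PT-D. The log2 fold change in PT-ND vs. T-ND was -0.57 ± 0.20 (unadjusted p = 0.0157 and adjusted p = 0.388 by edgeR), and 5.52% of all genes were lower in PT-ND without overlap. In PT-D vs. PT-ND it was 0.58 ± 0.23 (adjusted p = 0.127 by edgeR), and it passed without PT-D replicate 1, the lowest PT-D library (0.77, adjusted p = 0.0411). In the interaction it was 0.87 ± 0.35 (adjusted p = 0.132 by edgeR), and it passed without T-D replicate 1 (adjusted p = 0.0428).

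Ciart, whose product represses the activator pair, was the one member whose interaction passed edgeR's test. Its normalised read counts were 236, 148, 383 and 288 in T-ND and 807, 408, 612 and 436 in T-D, so that every T-D library lay above every T-ND library. They were 731, 749 and 348 in PT-ND and 305, 554 and 395 in PT-D, where the groups overlapped. The log2 fold change of diabetes was 1.09 ± 0.29 in term mice (adjusted p = 0.205 by edgeR and 0.0217 by DESeq2) and -0.54 ± 0.29 in preterm mice (adjusted p = 0.246 by edgeR). The difference between them, the interaction, was -1.65 ± 0.47 (adjusted p = 0.0492 by edgeR and 0.00771 by DESeq2). It passed without T-ND replicate 3 (0.0427) and without T-D replicate 2 (0.0414), and did not pass without any 1 of the other 12 libraries, where edgeR's adjusted p ran from 0.0509 to 0.126. With the name suffix as a covariate it did not pass either (0.0602). Without T-ND replicates 1 and 2 it was -1.30 (adjusted p = 0.107). In T-D vs. T-ND alone, Ciart passed without T-ND replicate 3 (1.34, adjusted p = 0.0421).

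Ciart was also high in the preterm mice without diabetes. In PT-ND vs. T-ND its log2 fold change was 1.21 ± 0.32 (adjusted p = 0.265 by edgeR and 0.0293 by DESeq2). PT-ND replicate 3, at 348, lay inside the T-ND range.

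The cryptochromes, partners of the PER proteins, belonged to the further clock genes. The normalised read counts of Cry1 were 138, 150.4 and 80.8 in PT-ND, below every other library. They were 274, 332, 417 and 273 in T-ND, 212, 352, 256 and 242 in T-D and 439, 189 and 298 in PT-D. Cry1 rose by 1.32 ± 0.33 on the log2 scale in PT-D vs. PT-ND (adjusted p = 0.0258 by edgeR), and its interaction was 1.61 ± 0.40 (adjusted p = 0.0346 by edgeR). In PT-ND vs. T-ND the log2 fold change was -1.40 ± 0.25, with an adjusted p of 0.1 by edgeR and 8.82e-05 by DESeq2. Cry2 passed in none of the contrasts by edgeR, with log2 fold changes from -0.51 in PT-ND vs. T-ND to 0.59 in the interaction.

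Nr1d1, which encodes REV-ERB alpha, was highest in PT-ND. Its normalised read counts there were 1100.4, 1543 and 1203, above every library of the other groups. They were 634, 436, 620.1 and 779 in T-ND, 658, 391, 543 and 315 in T-D and 606, 1027 and 895 in PT-D. The log2 fold change in PT-ND vs. T-ND was 1.05 ± 0.20 (unadjusted p = 0.000237, adjusted p = 0.108 by edgeR and 0.000626 by DESeq2), and 5.46% of all genes were higher in PT-ND without overlap. In PT-D vs. PT-ND it was -0.61 ± 0.21 (adjusted p = 0.0796 by edgeR and 0.0283 by DESeq2). In PT-D vs. T-D it was 0.81 ± 0.26 (adjusted p = 0.108 by edgeR and 0.0471 by DESeq2).

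Nr1d2, which encodes REV-ERB beta, ran the other way between the preterm groups. Normalised read counts of Nr1d2 were 1953, 1807 and 1501 in PT-ND and 2348, 2949.9 and 3276 in PT-D. They were 2069, 1902, 2328 and 2481 in T-ND and 2303, 2273, 2357 and 1979.6 in T-D. Every PT-D library lay above every PT-ND library, and the term groups overlapped. Nr1d2 rose by 0.70 ± 0.17 on the log2 scale in PT-D vs. PT-ND (adjusted p = 0.0238 by edgeR). It did not pass without PT-ND replicate 2 (0.0806) or 3 (0.079), or without PT-D replicate 2 (0.0557) or 3 (0.0921). The interaction was 0.68 ± 0.21 (adjusted p = 0.0637 by edgeR and 0.0205 by DESeq2), which passed in edgeR without PT-D replicate 1 (adjusted p = 0.0475).

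Dbp, a D-box activator often used as a marker of clock phase because its transcript swings widely over the day, passed in none of the contrasts by edgeR or DESeq2. The 3 PT-D libraries had 252, 782 and 488 normalised reads of Dbp, among which replicate 1 was the lowest of all 14 libraries. The counts were 649, 1171 and 737 in PT-ND, 969.6, 778, 536 and 972 in T-ND and 979.5, 497, 888 and 795 in T-D, and all groups overlapped. The log2 fold change in PT-D was -0.69 ± 0.34 against T-ND, -0.65 ± 0.33 against T-D and -0.75 ± 0.35 against PT-ND, with edgeR adjusted p of 0.243, 0.271 and 0.183. Without PT-D replicate 1 the last was -0.42 (adjusted p = 0.343), and without PT-D replicate 2 it was -1.20 and passed (adjusted p = 0.0352).

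Tef, the related activator and most abundant member, overlapped in every comparison. Its means were 5277 ± 838 in T-ND (SD, n = 4), 4999 ± 1657 in T-D (SD, n = 4), 5039.7 ± 598 in PT-ND (SD, n = 3) and 4419.9 ± 841 in PT-D (SD, n = 3) normalised reads. Its log2 fold changes ran from -0.26 ± 0.17 in PT-D vs. T-ND to -0.07 ± 0.16 in PT-ND vs. T-ND, and edgeR's adjusted p was at least 0.373. Hlf, the third of these D-box activators, passed in no comparison by edgeR, with log2 fold changes from -0.43 in the interaction to 0.23 in PT-ND vs. T-ND.

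**Figure D3:**
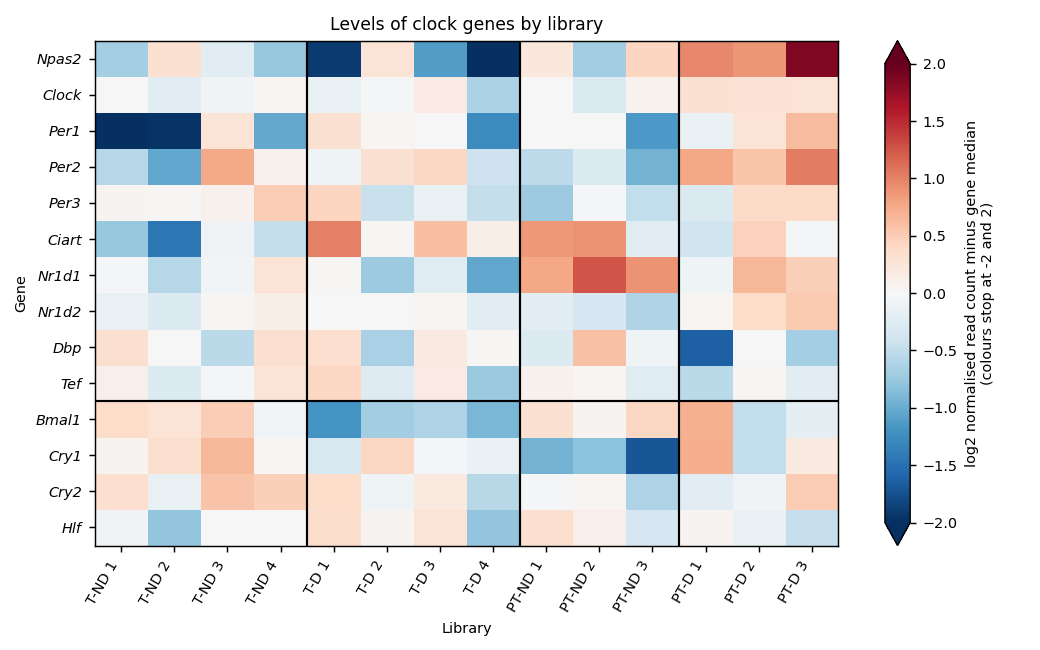
Levels of the 10 members (above the line) and of Bmal1, Cry1, Cry2 and Hlf (below it) in each library, as log2 normalised read count minus the median of the gene over the 14 libraries. Colours stop at -2 and 2. Npas2 is high in all 3 PT-D libraries, Nr1d1 is high and Cry1 low in all 3 PT-ND libraries, Bmal1 is low in all 4 T-D libraries, and Per1 is low in T-ND replicates 1 and 2.

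Of the 20 further clock genes, 4 rose and 3 fell in PT-D vs. PT-ND, where 12.9% of all genes passed and 7.14% passed as higher. None of the 20 passed edgeR's test in the other 4 pairwise comparisons, where 4, 5, 4 and 7 had an unadjusted p under 0.05 (PT-D vs. T-ND, PT-D vs. T-D, T-D vs. T-ND and PT-ND vs. T-ND), against 24.3%, 22.3%, 11.8% and 10.7% of all genes. In the same order DESeq2 passed 1, 1, 1 and 4 of them, against 17.7%, 15.8%, 2.81% and 2% of all genes, among these Bmal1 in T-D vs. T-ND and Cry1 in PT-ND vs. T-ND. Besides Cry1, those that rose were Rora (1.13 ± 0.21, adjusted p = 0.00942), whose product opposes the REV-ERBs, Nfil3 (0.63 ± 0.17, adjusted p = 0.0394), the D-box repressor, and Gsk3b (0.60 ± 0.17, adjusted p = 0.0436), a kinase that modifies clock proteins, all by edgeR. Those that fell were Fbxl21 (-1.79 ± 0.36, adjusted p = 0.0124) and Btrc (-0.74 ± 0.18, adjusted p = 0.0222), which encode parts of ubiquitin ligases for CRY and PER proteins, and Bhlhe40 (-0.91 ± 0.26, adjusted p = 0.044), an E-box repressor. Fbxl21 had 74.1, 72.4 and 66.9 normalised reads in PT-ND and 17.3, 26.3 and 17.6 in PT-D, with 22.6, 21, 30.4 and 25.8 in T-ND and 38.5, 20.7, 28.2 and 37.3 in T-D. The PT-ND values were the high ones. In the interaction 4 of the 20 passed by edgeR, against 6.23% of all genes, 2 with a positive and 2 with a negative value. Cry1 was among the former, and the latter were Fbxl21 (-2.11 ± 0.45, adjusted p = 0.0252) and Btrc (-0.86 ± 0.22, adjusted p = 0.0377).

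Among 10 kidney genes with a known daily rhythm or clock control, 1 passed in PT-D vs. T-ND, against 2.76% of all genes. In PT-D vs. PT-ND 1 passed as well, against 12.9%, and only there was the share no larger than that of all genes. Edn1, which encodes endothelin 1, rose by 1.47 ± 0.31 on the log2 scale in PT-D vs. T-ND (adjusted p = 0.0434 by edgeR). Edn1 had 146, 115 and 167 normalised reads in PT-D and 42.8, 32.9, 80.7 and 49.4 in T-ND. It had 132, 204, 123 and 147 in T-D and 162, 82.6 and 93.5 in PT-ND, so that T-ND was the low group. In T-D vs. T-ND its log2 fold change was 1.54 ± 0.31 (adjusted p = 0.102 by edgeR and 0.000275 by DESeq2). Tsc22d3, a glucocorticoid-induced gene also known as Gilz, rose by 0.83 ± 0.16 in PT-D vs. PT-ND (adjusted p = 0.0113 by edgeR). The remaining contrasts gave no pass in this list by edgeR, with 1 to 4 genes at an unadjusted p under 0.05 and 0 or 1 passed by DESeq2. Over all genes these shares were 10.7% to 24.5% and 2% to 21%. Avpr2 had at most 8.08 normalised reads in any library.

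The 7 genes of the glucocorticoid response, of which Per1 is one, had 3 members that rose in PT-D vs. PT-ND, against 7.14% of all genes. None passed by edgeR elsewhere, where 0 to 4 had an unadjusted p under 0.05 (10.7% to 24.5% of all genes) and DESeq2 passed 0 to 2 (2% to 21% of all genes). Besides Tsc22d3 those that rose were Fkbp5 (0.82 ± 0.17, adjusted p = 0.0156 by edgeR) and Zbtb16 (1.43 ± 0.25, adjusted p = 0.00768 by edgeR). The median log2 fold change of the list was 0.82 in that comparison, against 0.05 over all genes. The summed level was 31641 to 41166 in PT-D and 21362 to 33938 in PT-ND. It was 33526 to 43013 in T-D and 12246 to 45312 in T-ND, where replicates 1 and 2 held the low values. Of 9 immediate early genes, none passed in any comparison by edgeR, 2 or 3 had an unadjusted p under 0.05 in each (10.7% to 29.1% of all genes), and DESeq2 passed 0 to 2 (2% to 26.7% of all genes). Their summed level ran from 9403 to 19604 in PT-D and from 8204 to 14414 in PT-ND. The highest PT-D value was that of replicate 1, the library with the least Dbp of all. The part of hormone level and of handling in the clock values was not tested.

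Relations between clock genes were computed over the 14 libraries on the log2 scale of counts per library size, for 10 pairs with p-values from 100000 permutations adjusted over the 10. Per1 and Per2 had r = 0.76 (adjusted permutation p = 0.0106) and rho = 0.73 (adjusted permutation p = 0.0202). Without T-ND replicates 1 and 2, which lay farthest out for Per1, r was 0.66. For deviations from the group means r was 0.87. Npas2 and Clock had r = 0.76 (adjusted permutation p = 0.0106) and rho = 0.61 (adjusted permutation p = 0.0778), and r fell to 0.46 without T-D replicate 4 and PT-D replicate 3, so that the relation rested on those libraries.

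Dbp and Npas2, driven through different elements, had negative correlation values. Their r was -0.57 (adjusted permutation p = 0.127) and their rho -0.75 (adjusted permutation p = 0.0202), and r was -0.40 without PT-D replicates 1 and 3. For deviations from the group means their r was -0.43. The permutations were made without regard to group, and PT-D was low for Dbp and high for Npas2. For Dbp and Bmal1 r was -0.37 over the libraries (permutation p = 0.199, adjusted p = 0.274, rho = -0.38, permutation p = 0.174) and -0.83 for deviations from the group means. Within groups, then, libraries with more Dbp had less Bmal1, while the group means did not follow that line. Dbp and Per3 likewise had r = 0.29 over the libraries (permutation p = 0.324, adjusted p = 0.36, rho = 0.36, permutation p = 0.208) and 0.74 within groups. Over the 45 pairs of members, r within groups was above 0 in 38, and was highest for Nr1d1 and Tef at 0.90 and for Per3 and Nr1d1 at 0.89. These share the library, its depth and its RNA quality.

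Per1 was also set beside the 6 other glucocorticoid response genes, which was done after its low values in T-ND replicates 1 and 2 had been seen. The r with Klf9 was 0.91 (permutation p = 1e-05, the smallest that 100000 permutations can give, adjusted p = 6e-05) and rho was 0.76 (adjusted permutation p = 0.0121). Without T-ND replicates 1 and 2 r was 0.81, and for deviations from the group means 0.87. The r with the other 5 genes ran from 0.67 for Zbtb16 to 0.80 for Sgk1 (each adjusted permutation p 0.00779 or less). For Zbtb16 rho was 0.40 and did not pass (adjusted permutation p = 0.155), and for the other 4 it ran from 0.64 to 0.70 (each adjusted permutation p 0.0186 or less). Without T-ND replicates 1 and 2, r with these 5 genes ran from 0.46 for Tsc22d3 to 0.67 for Zbtb16, and was 0.47 for Sgk1.

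**Figure D4:**
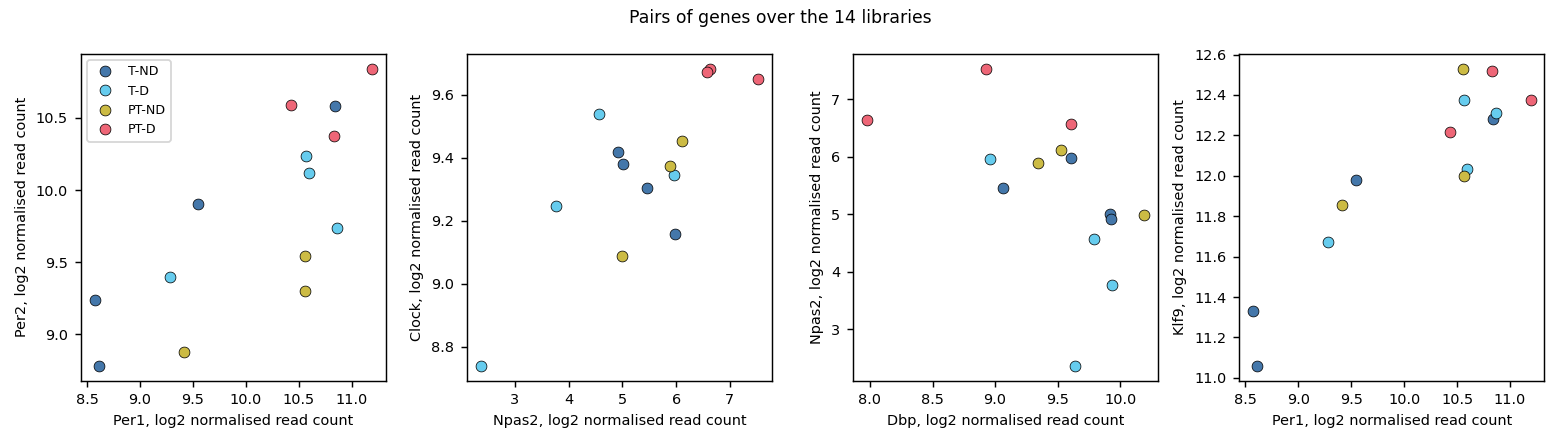
Log2 normalised read counts of Per1 and Per2, of Npas2 and Clock, of Dbp and Npas2, and of Per1 and Klf9, with 1 point per library coloured by group. The r values are 0.76, 0.76, -0.57 and 0.91; the 2 T-ND points at the lower left for Per1 are replicates 1 and 2.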

How the data were processed

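Per the labels and the study's methods, poly-A libraries that do not mark strand were aligned with STAR to GRCm39 and counted on GENCODE M36. The authors deposited raw read counts per gene for each library, and the unstranded count column was used; the columns for single strands were not. Identifiers were matched to GENCODE M39, 31972 with and 56236 without version. Genes with more than 10 reads over the 14 libraries were kept (22339). For each pairwise contrast only the libraries of both groups entered the fit, in edgeR 4.0.16 (R 4.3.3; TMM, quasi-likelihood test, two-sided), and all 14 entered that of the interaction. SE is the log2 fold change divided by the root of F. The code was tested on simulated data. DESeq2 1.42.0 and other filters, scalings, covariates and left-out libraries were the alternatives. Replicates are separate mice. The members and gene lists were chosen with earlier results of these data known. All members were named; of the other clock genes, Bmal1, Cry1, Cry2, Hlf and those that passed, except 1 that is not reported here; of the other lists, up to 3 that passed; and the 5 genes most and the 5 least like Dbp. Members had 4 (Npas2) to 7584 (Tef) reads per library, so Npas2 is the least precise. Permutation tests used SciPy.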

Additional observations from a re-analysis of the deposited data

Results flagged for a closer look

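Of 20 combinations of a member and a group of 4 libraries, 1 held a library far from the rest by Dixon's criterion. This was Per3 in T-ND, where replicate 4 had 597 normalised reads and the other 3 libraries 427 to 444. Chance marks about 1 in 20 such groups.

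By the interaction term of edgeR, diabetes went with different log2 fold changes in term and preterm mice for Ciart, 1 of 10 members, and for 4 of the 20 further clock genes, against 6.23% of all genes. The interaction was -1.65 for Ciart (adjusted p = 0.0492), 1.61 for Cry1 (adjusted p = 0.0346), -2.11 for Fbxl21 (adjusted p = 0.0252) and -0.86 for Btrc (adjusted p = 0.0377).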

How the results depend on the processing

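The number of members that passed depended on the tool and the filter. In PT-D vs. T-ND the 1 call (Npas2) was 0 with the suffix a, which 5 library names carry and whose meaning is not stated, as a covariate (4.37% of all genes passed). It was 0 with a joint fit of all 14 libraries (2.29%). It was also 0 without T-ND replicates 1 and 2 (0.238%), which both carry the suffix, an alternative chosen after seeing the data. In PT-D vs. T-D there were 3 calls by DESeq2 (15.8% of all genes), 3 with no filter (5.96%) and 1 with the joint fit (5.92%), against 0 (0.193%). In T-D vs. T-ND DESeq2 made 1 call (2.81% of all genes) against 0 (0.0673%). In PT-D vs. PT-ND the 2 calls were 4 by DESeq2 (26.7% of all genes), 7 with no filter (14.9%) and 3 with the name suffix, Npas2 in addition (12.2%). They were 1 (Per2) where a log2 fold change past 1 was also asked for. In PT-ND vs. T-ND there were 2 by DESeq2 (2% of all genes) and 1 with no filter (0.356%), against 0 (0.0809%). In the interaction the 1 call was 2 by DESeq2 (21% of all genes), 2 with edgeR's filterByExpr (12.1%), 2 with no filter (5.4%) and 0 with the name suffix (4.55%). Without T-ND replicates 1 and 2 it was 1 (3.22%), then Per2 in place of Ciart. Leaving out 1 library at a time gave 0 to 3 calls in PT-D vs. T-ND (0.126% to 10.6% of all genes). It gave 0 to 1 in PT-D vs. T-D (0.117% to 1.08%) and in T-D vs. T-ND (0.00899% to 1.41%). In PT-D vs. PT-ND it gave 1 to 4 (3.85% to 15.5%), in PT-ND vs. T-ND 0 (0.0045% to 0.45%) and in the interaction 0 to 2 (0.34% to 7.62%). Scaling by DESeq2's method (RLE) in edgeR in place of TMM changed no count. The cause was not tested. Per2 in PT-D vs. PT-ND passed under every alternative named here.

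Samples of different groups that share a replicate number did not deviate together as a set. Their r ran from -0.38 to 0.41 over 19 pairs, with a median of -0.13, against a median of 0.05 in 54 other pairs. Among the pairs within term or within preterm mice, r ran from -0.23 to 0.41. Litter mates served as controls in the study, and these correlations cannot tell whether the numbers pair them. With the replicate number as a block, the members that passed numbered 0 in PT-D vs. T-ND (Npas2, adjusted p = 0.104 by edgeR), 5 in PT-D vs. PT-ND and 0 in the interaction (Ciart, adjusted p = 0.094 by edgeR), and as before 0 in the others. Of all genes, 0.327%, 13.2% and 2.99% passed in these 3 contrasts in turn, and 0.027% to 0.39% in the others.

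Reversals of sign occurred only in fold changes that passed nowhere. Per3 in PT-D vs. T-ND was 0.00022 with no filter, 0.0995 with the replicate block and 0.0074 with the joint fit. In T-D vs. T-ND, Dbp was 0.014 with the name suffix and 0.065 without T-ND replicates 1 and 2, Nr1d2 -0.017 and -0.113, and Per2 -0.375 without those libraries. In PT-ND vs. T-ND, Per1 was -0.063 without them, and Tef and Clock were 0.026 and 0.025 with the replicate block. Per1 in the interaction was 0.477 without them. Leaving out 1 library at a time, values that crossed 0 ran from -0.11 to 0.18 for Per3 in PT-D vs. T-ND and from -0.36 to 0.0065 for Tef in PT-D vs. T-D. In T-D vs. T-ND they ran from -0.10 to 0.53 for Per2, -0.20 to 0.11 for Dbp, -0.042 to 0.070 for Nr1d2, -0.29 to 0.093 for Tef and -0.20 to 0.061 for Clock. In PT-ND vs. T-ND they ran from -0.23 to 0.20 for Dbp, -0.16 to 0.028 for Tef and -0.080 to 0.097 for Clock, and in the interaction from -0.87 to 0.094 for Per1 and -0.29 to 0.078 for Tef. Nr1d1 with Npas2 and with Bmal1 turned from 0.40 and 0.35 to -0.10 and -0.60 for deviations from the group means. So taken, Dbp with Per3 (0.74) and with Bmal1 (-0.83) passed, and Npas2 with Clock (0.59) did not. Npas2 with Clock gave 0.46 without the 2 farthest libraries and 0.83 without those with the suffix, and Per1 with Per2 0.66 and 0.78, none of which passed. With CACGTT allowed beside CACGTG, 4 members held an E-box. CACGTT itself was in 1 member, Nr1d1, and in 5.44% of all genes with a promoter. The looser D-box TTANNTAA was in 2 members and in 6.93% of those genes.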

Other observations

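Among 12146 genes with a mean of at least 50 normalised reads, those whose deviations from the group means followed Dbp most closely over the 14 libraries were Izumo4 (r = 0.94), Trub2 (r = 0.92), 1700003E16Rik (r = 0.91), Mgat2 (r = 0.90) and Cdh2 (r = 0.89). Those that ran most against it were Cxcl10 (r = -0.89), Daxx (r = -0.89), Ier5 (r = -0.89), F11r (r = -0.89) and Marcksl1 (r = -0.87). These are the extremes of 12146 correlations across libraries that share depth and RNA quality, and none of the 10 is a clock gene of the lists used here. Of the 10 genes, Cxcl10 was the most abundant, with a mean of 10150 normalised reads.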
